A study of Mus musculus with 4 samples.

Results

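The baseline gene expression of the WT cells of a calumenin study was read from 2 RNA sequencing libraries. The series holds 4 libraries of mouse cells in all. The 2 used here, WT replicates 1 and 2, carry the genotype label Calu-WT and no treatment, and the 2 Calu-KO libraries were not used. Their titles call them primary lung fibroblasts and use the code NC, while the source names leave out the lung. No source used here gives the strain, age, sex or passage. A gene was taken as expressed where its mean over both libraries reached 1 FPKM. FPKM are fragments counted per kilobase of gene, scaled to the depth of the library. The length is 1 deposited value per gene, such as 4133 bases for Gapdh and 866 for Fth1. Where it exceeds the length of the RNA made, the level is understated, so ranks and shares between genes are approximate. By this rule 11969 of 54532 genes in the deposited table were expressed (21.9%), among them 10258 of 22046 protein-coding genes (46.5%). The last share is the background against which counts of gene lists are given below, and the median of all protein-coding genes was 0.452 FPKM. Values given as a pair are WT replicate 1 and then WT replicate 2. The labels do not say that the libraries came from separate animals or cultures, so their spread may be technical. Just inside the threshold lay Exoc3l (1.01 and 0.994 FPKM), Shcbp1 and Cox4i2, and just outside it Dpm1, Elavl2 and Ccr10 (0.602 and 1.4 FPKM).

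Fibroblasts build and repair the extracellular matrix of connective tissue. They secrete collagens, fibronectin and proteoglycans, fold them in the endoplasmic reticulum (ER), and take orders from platelet-derived growth factor, TGF-beta and adhesion receptors. Fibroblasts of each organ also keep a set of transcription factors that records where in the body they arose. Calumenin, encoded by Calu, is a calcium-binding protein of the secretory pathway, and vimentin, encoded by Vim, is the intermediate filament of mesenchymal cells. The study's title sets both in organ fibrosis.

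The libraries held 15635448 and 16033535 counted reads, with at least 1 read in 20477 and 20429 genes. A single read in a 1-kilobase gene was worth 0.0611 and 0.0602 FPKM. The libraries were alike. Of 4982 protein-coding genes at 10 FPKM or more, 98% differed by at most 0.25 on the log2 scale, and the median difference was 0.06. Counting error alone gives a mean chi-square of about 1 per gene and a median below that. Over 11197 genes with 100 reads or more the mean was 3.82 and the median 1.22, so both were above counting error. The libraries were thus not 1 library deposited a second time within counting error, which does not show that they are biological replicates.

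A low or 0 value is not always an unused gene in this table. Gapdh, a glycolytic enzyme gene used by nearly every cell, stood at 3.96 and 3.57 FPKM. Tmsb4x, which encodes an abundant actin-binding peptide, was listed at 0 in both libraries. Both have near-identical copies elsewhere in the genome, and copies of other such genes stood high: the ribosomal pseudogene Rps2-ps10 was at 669 and 677 FPKM and its parent Rps2 at 26.3 and 28. These genes were singled out after their values were seen. Genes with close copies are therefore uncertain here, and a gene at 0 is described below as listed at 0. A count of 0 allows up to 3 reads, which for Dcn corresponds to 0.0314 and 0.0309 FPKM, and this limit covers counting error only. Overlapping genes are a further limit, since it is not known whether strand was used in counting. Of 528 expressed list genes and top genes, 77 shared a stretch with another gene at 0.2 of their level or more, 71 of them with one on the other strand.

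The most abundant RNAs belonged to respiration, translation, iron storage, the cytoskeleton and protein folding. The 25 protein-coding genes at the top included 7 genes of the mitochondrial chromosome, led by mt-Co1, a subunit of cytochrome c oxidase, at 5340.3 and 5574 FPKM, followed by mt-Nd1 (3718 and 4035) and mt-Cytb (2827 and 3106). Fth1, the ferritin heavy chain that stores iron, stood at 3034 and 3002 FPKM, rank 3 among protein-coding genes. Eef1a1, the elongation factor that brings tRNA to the ribosome, stood at 2642 and 2675 FPKM. The reads of mt-Nd6 (1811 FPKM) and mt-Nd5 (1618 FPKM) cannot be told apart with certainty, since these genes lie on opposite strands of 1 stretch and the use of strand in counting is not given.

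Ribosomal protein genes made up 14 of the 50 most abundant genes of any class. Rplp1 stood at 1777 and 1749 FPKM and Rplp0 at 1531 and 1563 FPKM, and Rps4x, Rpl19, Rps15 and Rpl4 were also among the first 25, at means between 624 and 702 FPKM. Together 80 of 81 ribosomal protein genes were expressed, and they held 7.51% and 7.71% of all FPKM. Pseudogene copies such as Rps2-ps10 are not counted in these values, which may therefore understate the ribosomal level. The mitochondrial chromosome held 7.15% and 7.43%. Its 13 protein-coding genes were uneven, with means from 2.52 to 5457 FPKM, and the reason for the low ones was not tested. The share may therefore understate the mitochondrial level.

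The other leaders were cytoskeletal, secreted or stress proteins. Actb, cytoplasmic beta-actin, stood at 1407 and 1439.5 FPKM, Lgals1, the galactose-binding lectin galectin-1, at 1407 and 1389.8, and S100a11, a calcium-binding protein, at 1259 and 1292. Spp1, the secreted phosphoprotein osteopontin, reached 1091 and 1130.2 FPKM, the highest of the core matrix genes, with 29433 and 30938 reads at chr5:104435118-104441050 in mm10. Hsp90ab1, a cytosolic chaperone, stood at 1080.4 and 1091 FPKM, B2m, the light chain of MHC class I, at 701 and 779, and Tuba1b, an alpha-tubulin, at 624 and 611. The first 641 genes held 50% of all FPKM and the first 50 held 19.2%. The plot of levels by rank shows where these genes lie in the whole range.

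**Figure D1:**
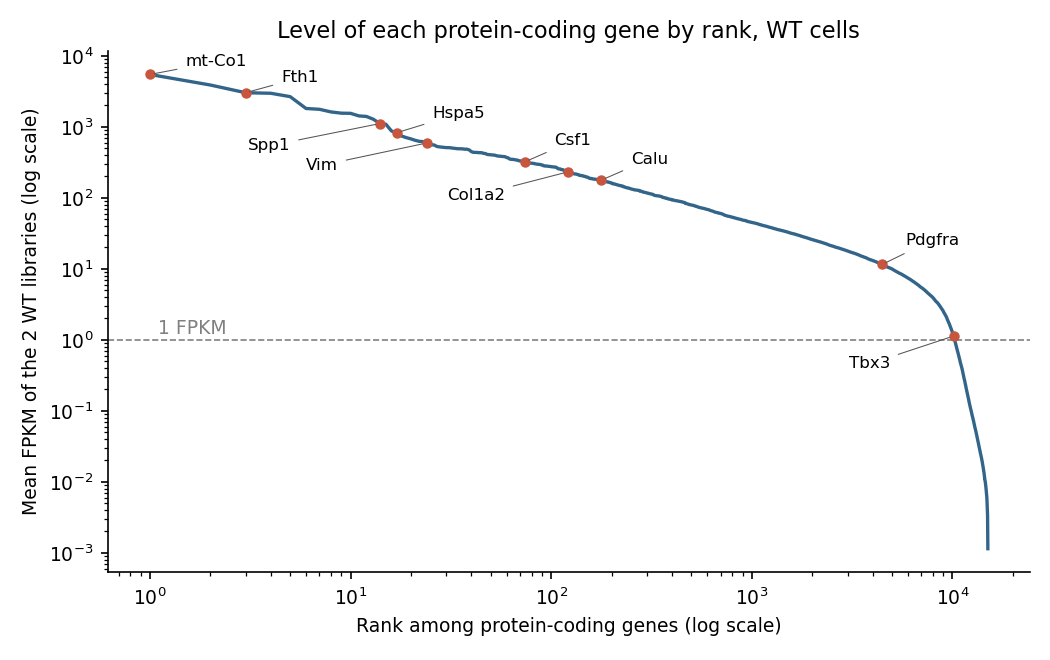
The line gives the mean FPKM of the 2 WT libraries (vertical axis, log scale) for protein-coding genes with a read, by rank (horizontal axis, log scale). Red points mark 10 genes named in the text, from mt-Co1 at 5457 FPKM to Tbx3 at 1.13 FPKM, and the dashed line is 1 FPKM.

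Vim stood at 588 and 596 FPKM (592 ± 5.75, SD, n = 2), rank 24 among protein-coding genes, with 45623 and 46928 reads at chr2:13573927-13582826 in mm10 (ENSMUSG00000026728). Calu stood at 178 and 177 FPKM (178 ± 0.444, SD, n = 2), rank 178, with 13583 and 13732 reads at chr6:29348069-29377110 (ENSMUSG00000029767). The other CREC family members, which share calumenin's calcium-binding EF hands, were also expressed. Rcn1 stood at 50.6 and 50.6 FPKM, Sdf4 at 25 and 25.8, Rcn2 at 23.9 and 23.5 and Rcn3 at 9.89 and 10.6, so Calu was the highest of the 5 in both libraries.

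Vimentin was the main cytoplasmic intermediate filament. Of 23 intermediate filament genes 6 were expressed. After Vim came the nuclear lamins Lmna (124 and 122 FPKM), Lmnb1 (86.3 and 85.9) and Lmnb2 (23.9 and 27.1), then the muscle filament desmin, Des, at 14 and 15.6 FPKM, and the keratin gene Krt8 at 2.75 and 2.28. Among 10 actins and tropomyosins 7 were expressed, with, below Actb, Tpm4 at 134 and 132 FPKM, Actg1 at 109 and 107 and Tpm3 at 78.7 and 81.6. The smooth-muscle actin Acta2 had 3 and 2 reads.

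The ER folding machinery was expressed in full. All 36 listed ER chaperones and folding enzymes passed 1 FPKM and 31 passed 10 FPKM, with a median of 71.7 FPKM against 0.452 for all protein-coding genes, and the list held 1.98% and 1.96% of all FPKM. Hspa5, the central ER chaperone BiP, stood at 819 and 830.4 FPKM, and Hsp90b1, the ER member of the HSP90 family, at 539 and 574. P4hb, a protein disulfide isomerase that is also a subunit of collagen prolyl hydroxylase, stood at 521 and 519 FPKM, and Calr, the lectin chaperone calreticulin, at 499.8 and 492. Pdia3, a disulfide isomerase that works with calreticulin, stood at 463 and 483 FPKM, and Serpinh1, the collagen-specific chaperone HSP47, at 387 and 383. At the low end, Ero1lb, an ER oxidase, stood at 3.32 and 3.7 FPKM.

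Several promoters of these genes hold the letters of a textbook control sequence, the ER stress response element. The element is CCAAT, any 9 bases, then CCACG. It was searched on both strands in RefSeq promoter windows (GRCm38.p6) of 300 bases, from 250 before to 50 after the start. Of the 36 genes 29 had a window, and 8 of these held the element (27.6%). Over all windows searched, 39 of 32851 held it (0.119%). These shares are unlike, since the first takes a single window per gene and the second every window, of genes expressed or not. The element is a textbook one for such genes, so the shares are no test of the list. The sequences of the 5 most abundant of the 8 genes are shown, so that the shared element can be seen in its place. The fixed letters of the element are in capitals, and CGTGG with ATTGG is the element read on the other strand. For Hspa5, whose deposited gene begins before the element, only the element with 5 bases on each side is shown (chr2:34772020-34772048, plus strand). The others run up to the start of the deposited gene: chr10:86705510-86705694 (minus strand), chr8:84846935-84847181 (minus), chr11:50325674-50325923 (minus) and chr12:17266339-17266544 (plus).
Hspa5: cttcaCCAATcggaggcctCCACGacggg
Hsp90b1: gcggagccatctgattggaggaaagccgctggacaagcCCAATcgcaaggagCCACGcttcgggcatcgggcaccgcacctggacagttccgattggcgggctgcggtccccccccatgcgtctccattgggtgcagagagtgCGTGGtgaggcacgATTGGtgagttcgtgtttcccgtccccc
Calr: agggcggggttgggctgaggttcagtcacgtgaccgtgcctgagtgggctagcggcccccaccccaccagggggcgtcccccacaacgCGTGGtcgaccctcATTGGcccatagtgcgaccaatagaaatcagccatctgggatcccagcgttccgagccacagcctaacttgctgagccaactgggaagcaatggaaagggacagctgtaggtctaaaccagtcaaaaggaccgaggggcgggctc
Canx: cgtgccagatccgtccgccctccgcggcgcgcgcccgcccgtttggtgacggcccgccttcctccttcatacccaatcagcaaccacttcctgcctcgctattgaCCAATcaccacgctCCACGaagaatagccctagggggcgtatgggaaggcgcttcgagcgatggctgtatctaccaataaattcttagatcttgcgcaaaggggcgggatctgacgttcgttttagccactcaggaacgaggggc
Pdia6: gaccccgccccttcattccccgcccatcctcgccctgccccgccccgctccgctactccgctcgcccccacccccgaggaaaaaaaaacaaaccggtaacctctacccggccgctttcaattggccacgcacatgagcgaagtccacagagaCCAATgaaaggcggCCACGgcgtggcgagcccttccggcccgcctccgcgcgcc

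The promoter of Hsp90b1 held the element 2 times, once on each strand, and the other 4 held it 1 time. Canx, the membrane-bound lectin chaperone calnexin, stood at 290.3 and 303 FPKM and Pdia6, a disulfide isomerase, at 270.1 and 278 FPKM. The other 3 with the element were Creld2, Dnajc3 and Ero1lb. The element was not in the window of Calu, or in those of P4hb and Pdia3, whose levels were near that of Calr. The window of Pdia3 was set by a start 127 bases from that of the deposited gene, so an element outside it would be missed. A match is a description of letters, and binding at these sites was not measured.

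Most markers shared by fibroblasts were expressed. Of 27 general fibroblast markers 19 were expressed, all of them above 10 FPKM, and the list's median was 36 FPKM. The chains of collagen I, Col1a2 and Col1a1, stood at 234 and 229 and at 130.03 and 121 FPKM, and Col3a1, the chain of collagen III, at 38.9 and 39.4. The collagen receptor Ddr2 stood at 53.8 and 56 FPKM, and the receptors for platelet-derived growth factor, Pdgfrb and Pdgfra, at 30.8 and 29.7 and at 11.6 and 11.4 FPKM. Sparc, a collagen-binding glycoprotein, stood at 190.2 and 192 FPKM.

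Other fibroblast markers were low or listed at 0. Dcn and Lum, the small proteoglycans decorin and lumican, were listed at 0 in both libraries, as was Fap, fibroblast activation protein. Thy1, the surface protein CD90, had 2 and 3 reads, Lox, lysyl oxidase, 4 and 2, and Nt5e, the ectoenzyme CD73, 0 and 3. Mmp2, gelatinase A, stood at 0.525 and 0.643 FPKM and Fstl1, a secreted glycoprotein, at 0.211 and 0.147. In all, 7 of the 11 genes taken as defining were expressed, and Thy1, Fap, Dcn and Lum were not.

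Most transcription factors that mark lung mesenchyme were low or listed at 0, so these values do not bear out the lung part of the titles. A value of 0 is not proof of an unused gene in this table. Of 10 such genes 2 were expressed, Hoxa5 at 8.005 and 7.51 FPKM and Tbx3 at 1.13 and 1.13. Tbx4 and Tcf21, which define lung mesenchyme, and Foxf2 were listed at 0, Tbx5 had 3 and 0 reads and Foxf1 1 and 0. A count of 0 allows up to 0.0539 and 0.0531 FPKM for Tbx4 and 0.078 and 0.0769 for Tcf21. Markers of the alveolar fibroblast were as scarce, with 2 of 15 expressed and 10 listed at 0 in both libraries, among them Inmt and Col13a1. The 2 were the lipid-droplet regulator G0s2 (9.89 and 10.4 FPKM) and the growth factor gene Vegfd (a mean of 8.04). The cells are called the WT cells here, and no other origin was assigned to them.

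Markers of adventitial fibroblasts were split, with 6 of 15 expressed. Anxa3, an annexin, stood at 70.9 and 76.3 FPKM, Ly6a, the surface antigen Sca-1, at 34.7 and 34.3, Ly6c1 at 15.7 and 18.3 and Dpt, the matrix protein dermatopontin, at 9.25 and 8.73. Pi16, which marks a fibroblast reserve found in many organs, stood at 0.475 and 0.438 FPKM, Cd34 had 2 and 5 reads and Dpp4 was listed at 0. These genes thus fell on both sides of 1 FPKM within 1 list.

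Lipid-handling genes were expressed, while several genes of mature fat cells were not. Of 16 lipofibroblast and adipocyte genes 10 were expressed, with a median of 7.61 FPKM. Plin2, which coats lipid droplets, stood at 94.3 and 99.1 FPKM, Cebpb, a transcription factor of early fat cell formation, at 56.5 and 56.2, and Plin4, another droplet protein, at 43 and 41.1. Lpl, the lipase that frees fatty acids from lipoproteins, stood at 29.9 and 31.5 FPKM, Cd36, a fatty acid receptor, at 25.9 and 26.3 and Pparg, the nuclear receptor that drives fat storage, at 20.7 and 22.7. Fabp4, the fatty acid carrier of fat cells, was also expressed, at 12.4 and 12.6 FPKM. Adipoq, the hormone adiponectin, had 1 and 0 reads, Plin1 2 and 1, and Cebpa, Lep and Cfd were listed at 0.

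Of the genes taken as defining for myofibroblasts and smooth muscle, all but the muscle filament gene Des were at or near 0. Besides Acta2, Tagln, the smooth-muscle protein SM22, had 2 and 5 reads, Myh11, the smooth-muscle myosin, 1 and 4, and Cnn1 and Myl9 were listed at 0. Of the 25 listed genes 12 were expressed, and the highest were the widely used relatives Tagln2 (169 and 172 FPKM), Cnn2 (166 and 167) and Cnn3 (56.2 and 58.9), followed by Myl6, Tpm1 and Cald1 at 28.9 to 38.1 FPKM. Des was the only gene called defining in this list that passed 1 FPKM.

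Markers of other cell types were mostly low. Over 13 such lists 30 of 200 genes were expressed, 79 were listed at 0 in both libraries, and the median was 0.0168 FPKM. In bulk RNA, few cells of a type and little RNA per cell cannot be told apart. Ptprc, the leukocyte antigen CD45, had 1 and 1 reads, Cd3e of T cells 2 and 1, Cd79a of B cells 4 and 3 and S100a8 of neutrophils 1 and 0. Csf1r, the macrophage growth factor receptor, had 12 and 17 reads, Marco 2 and 0, and Adgre1 and C1qa were listed at 0. The 3 expressed macrophage genes were Lyz2 (6.59 and 7.23 FPKM), Cd14 (4.9 and 4.83) and Cd68 (4.32 and 4.79). The 1 expressed lymphoid or pan-leukocyte gene was Coro1a (2.9 and 2.77 FPKM), which overlaps Bola2 on the other strand (4.74 FPKM). Cd74, a gene of antigen-presenting cells that is outside these lists, was higher, at 114 and 101 FPKM.

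Epithelial and endothelial defining genes were also under 1 FPKM on the mean. Epcam, Sftpc and Nkx2-1 were listed at 0, Cdh1 had 0 and 1 reads and Scgb1a1 3 and 8. Aqp5, a water channel of alveolar and gland epithelium, nevertheless stood at 26.2 and 25.2 FPKM, with Hopx at 4.996 and 5.24 and Trp63 at 1.7 and 1.43. Among endothelial genes Cdh5, Kdr and Cldn5 were listed at 0, Pecam1 had 8 and 11 reads and Tek 12 and 6. The 2 expressed were Eng, a TGF-beta co-receptor, at 74.7 and 75.1 FPKM, and Plvap at 11.7 and 10.3, and both overlap another expressed gene on the opposite strand.

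A few genes of still other lineages stood out from lists that were otherwise low. Of 15 mesothelial genes 2 were expressed. Msln, mesothelin, stood at 33 and 30.4 FPKM, while the other mesothelial definers Upk3b, Wt1 and Krt19 were listed at 0 or had at most 3 reads a library. Of 14 pericyte genes 5 were expressed, 3 of them at 10 FPKM or more. Among these Cspg4, the proteoglycan NG2, stood at 36.7 and 34.5 FPKM and Ndufa4l2, which overlaps the more abundant Shmt2, at 32.2 and 27.5. Rgs5, Abcc9 and Higd1b were listed at 0 and Kcnj8 had 0 and 1 reads. S100b, a glial calcium-binding protein, stood at 13.7 and 13.7 FPKM but overlaps Dip2a, and Gfap, Sox10, Rbfox3 and Snap25 were at 0.215 FPKM or lower. Of bone genes Spp1 was the leader. Runx2, the factor that starts bone formation, stood at 7.53 and 8.02 FPKM but overlaps Supt3 on the other strand (4.35 FPKM). Dmp1 stood at 6.34 and 5.4 FPKM, whereas Sp7 was at 0.683 and 0.904 and Ibsp was listed at 0. The cartilage factor Sox9 stood at 2.67 and 2.96 FPKM with Col9a1 at 1.48 and 1.6, Col2a1 had 2 and 0 reads and Acan was listed at 0.

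The remaining lists gave the same picture of isolated genes. Of muscle genes Acta1, skeletal actin, stood at 6.88 and 6.11 FPKM, Tnnt2, cardiac troponin T, at 3.31 and 3.18, Gata4 at 1.52 and 1.54 and Mylpf at 1.04 and 1.25, with Myog listed at 0, Myod1 at 2 and 0 reads and Nkx2-5 at 1 and 1. Gp9, a platelet glycoprotein, stood at 1.46 and 1.09 FPKM among erythroid and megakaryocyte genes, and Hbb-bs was listed at 0. Klf4 (7.27 and 7.07 FPKM) and Tfcp2l1 (4.62 and 4.63) passed among pluripotency genes, and Pou5f1, Nanog and Sox2 were listed at 0. No neutrophil or mast cell gene passed 1 FPKM. The plot of cell type markers shows how the general fibroblast list differs in level from these lists.

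**Figure D2:**
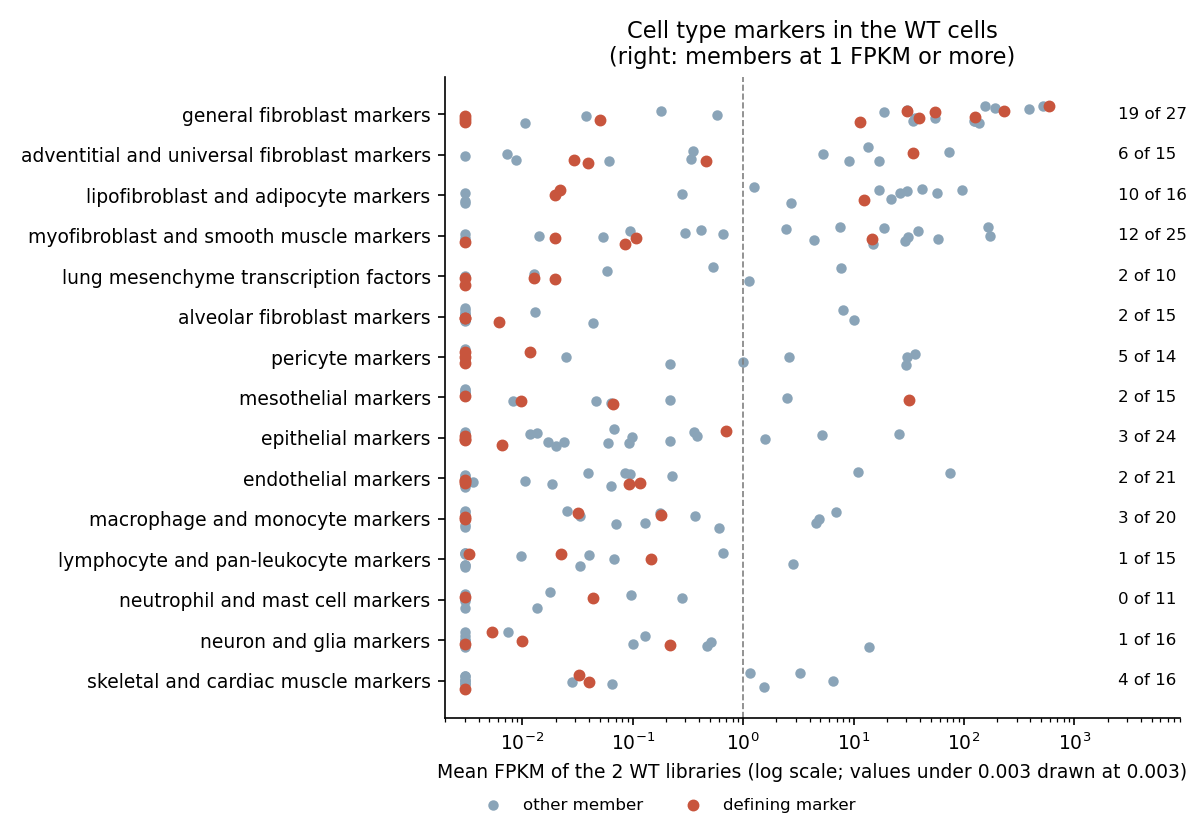
Mean FPKM of the 2 WT libraries (horizontal axis, log scale) for each gene of 15 marker lists (rows), with defining markers in red and other members in blue, and values under 0.003 FPKM drawn at 0.003. The general fibroblast row lies mostly to the right of the dashed line at 1 FPKM (19 of 27), while lung mesenchyme (2 of 10) and alveolar fibroblast rows (2 of 15) lie mostly to the left.

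The HOX genes, whose paralogue groups are used in order along the body axis, were expressed in a middle block. Of 39 genes 24 passed 1 FPKM: 3 of 8 in groups 1 to 3, 11 of 12 in groups 4 to 7, 9 of 10 in groups 8 to 10 and 1 of 9 in groups 11 to 13. Hoxc10 was the highest at 41.9 and 40.3 FPKM, followed by Hoxa10 (21.7 and 23.3), Hoxb9 (20.6 and 22.6), Hoxc6 (19.2 and 19.98), Hoxd8 (15.2 and 13.6) and Hoxb7 (12.7 and 15.2). The pairs for Hoxa10 and Hoxb9 overlap, so their order is not settled. In groups 1 to 3 no gene was above 2.2 FPKM, and Hoxb13, at 4.24 and 2.95 FPKM, was the exception in groups 11 to 13. Neighbouring HOX genes share transcribed stretches, so low values beside high ones, such as Hoxc5 at 3.28 and 3.08 FPKM, which shares a stretch with Hoxc6 and Hoxc10, are uncertain.

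**Figure D3:**
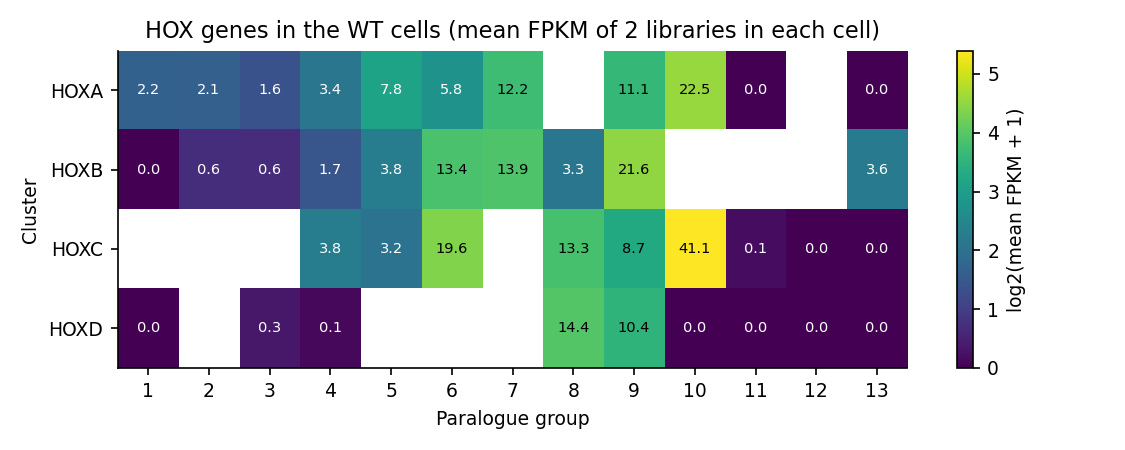
Mean FPKM of the 2 WT libraries, printed in each cell, for the 39 HOX genes by cluster (rows) and paralogue group (columns); colour is log2(mean FPKM + 1) and white cells hold no gene. Groups 4 to 10 hold the high values, up to 41.1 FPKM for Hoxc10.

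Among 41 other mesenchymal transcription factors 20 were expressed. Srf, which drives actin genes, stood at 23.2 and 23.9 FPKM, and the Hippo pathway effectors Tead1, Wwtr1 and Yap1 at means of 21.5, 19.6 and 18.6 FPKM. Shox2, a limb and heart homeobox factor, stood at 13.4 and 13.6 FPKM but overlaps Rsrc1 on the other strand (4.41 FPKM). Snai2, of the Snail family, stood at 12.4 and 13.6 FPKM. Twist1, Hand1, Hand2, Msx2 and Six2 were listed at 0. Of all genes that the authors' deposited table assigns to a transcription factor family, 765 of 1469 were expressed. The shares ran from 2 of 15 for POU factors, 4 of 17 for T-box and 59 of 232 for homeobox factors to 33 of 48 for bZIP and 10 of 10 for E2F factors. The most abundant, looked up after the values were seen, were the cold-shock domain protein Ybx1 (369 and 368 FPKM) and the stress-response factors Atf4 (282 and 295) and Atf5 (160.2 and 159.7).

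Genes of dividing cells were expressed in full. All 30 proliferation genes were expressed, with a median of 42.8 FPKM. Rrm2, the ribonucleotide reductase subunit that supplies DNA synthesis, stood at 147 and 151 FPKM, Top2a, a topoisomerase of dividing cells, at 107 and 109.9 and Mki67, the Ki-67 antigen, at 95.9 and 99.8. Pcna, Mcm3 and Cdc20, of replication and mitosis, stood at 79.3 to 95 FPKM. Among G1 regulators Ccnd1, cyclin D1, stood at 112 and 113 FPKM and Cdk4, its kinase, at 99.3 and 99.6, with the tumour suppressor gene Trp53 and the inhibitor gene Cdkn2c at means of 42.1 and 38.1 FPKM. Lmnb1, the lamin given above, is in the same list.

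A pair of cell cycle brakes gave no read. Cdkn2a, which encodes p16 and p19Arf and lies at chr4:89274471-89294653 in mm10, and its neighbour Cdkn2b, which encodes p15, were listed at 0 in both libraries, where 3 reads would be 0.156 and 0.154 FPKM for Cdkn2a and 0.132 and 0.13 for Cdkn2b. The genes around them were looked up after these values were seen. Mtap, the next coding gene on one side, held 79 and 74 reads (1.5 and 1.38 FPKM), Dmrta1, on the other side, 3 and 0, and Klhl9, beyond the interferon genes, 1121 and 1153. Other brakes were present, with Cdkn1b at 16.1 and 16.2 FPKM, Cdkn1a at 13.2 and 13.5 and Rb1 at 9.02 and 9.7. The DNA at this locus was not measured. Of 5 sex-linked genes Xist had 0 and 1 reads and Ddx3y, Kdm5d, Uty and Eif2s3y were listed at 0. All genes of chromosome Y together held 170 and 67 reads.

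Matrix output was led by a few genes. The core matrix lists (collagens, glycoproteins and proteoglycans) counted 174 genes, of which 74 were expressed, and they held 1.53% and 1.5% of all FPKM. Without Spp1 the shares were 1.15% and 1.11%. The median core matrix gene stood at 0.297 FPKM, below that of all protein-coding genes.

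Of 44 collagen chains 17 were expressed. After Col1a2 came the microfibrillar chains Col6a3 (137 and 135 FPKM) and Col6a1 (134 and 120.5), then Col1a1 and the basement membrane chains Col4a1 (81 and 81.9) and Col4a2 (55.3 and 54.6), which overlap each other. Col1a2 was higher than Col1a1 in both libraries, while the values of Col6a1 and Col1a1 overlapped. The remaining 27 chains stayed under 1 FPKM. The processing enzymes were used more widely, with 21 of 27 expressed. Crtap, of the prolyl 3-hydroxylase complex, stood at 64.1 and 64.4 FPKM, P4ha1, the prolyl 4-hydroxylase subunit, at 51.7 and 54.3, Loxl1, a crosslinking lysyl oxidase, at 46.7 and 43.4, Plod3, a lysyl hydroxylase, at 45 and 45.1, and Colgalt1, which adds galactose to collagen, at 41.3 and 42.7. Lox itself stood at 0.0379 FPKM.

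Of 101 matrix glycoproteins 48 were expressed. Below Spp1 stood Igfbp6, which binds insulin-like growth factor 2, at 196 and 206 FPKM, then Sparc, Aebp1, a collagen-binding protein, at 181 and 177, Fn1, fibronectin, at 155 and 154, and Efemp1, fibulin-3, at 138 and 147. Eln, Tnc, Mgp and Fbn2 were listed at 0, and Ctgf and Thbs1, textbook targets of TGF-beta and YAP, stood at 0.0107 and 0.0897 FPKM; these 6 were picked after their values were seen. Among 29 proteoglycans 9 were expressed, with Bgn, biglycan, at 139 and 138 FPKM, Hspg2, the basement membrane proteoglycan perlecan, at 40.5 and 38.1, Prelp at 23.4 and 24.3, Vcan, versican, at 8.22 and 8.83, Srgn at 6.76 and 7.92 and Ogn at 6.62 and 7.2. Bgn and the related Dcn thus stood at opposite ends of the same list.

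Mmp14 was the highest of the matrix-degrading metalloproteinases. Of 40 metalloproteinase and ADAMTS genes 10 were expressed and 17 were listed at 0. Mmp14, the membrane-bound collagenase, stood at 51.8 and 51.7 FPKM, Mmp11 at 12.8 and 13.4, Adamts2, which trims procollagen, at 9.32 and 9.05, and Mmp23, Mmp28 and Mmp19 at 3.77 to 8.62 FPKM. Of 20 genes listed with protease inhibitors 10 were expressed, and below Serpinh1, a chaperone of the same protein family, stood Serpinf1 (209 and 216 FPKM), Cst3 (157 and 156), Serpinb6a (88.2 and 92.4), Timp2 (79.3 and 82) and Timp1 (68.4 and 70.6). Among cathepsins and plasminogen activators 10 of 17 were expressed, with Ctsz (122 and 117 FPKM), Ctsd (106 and 107) and Ctsb (90.3 and 95) at the top, then Htra1, Ctsl and Ctsk, the collagen-cleaving cathepsin K, at 48.4 to 53.3 FPKM.

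Among secreted signals, 60 of 224 listed genes were expressed, and Mif and Csf1 were the highest. Mif, macrophage migration inhibitory factor, stood at 445 and 449 FPKM, and Csf1, the growth factor that keeps macrophages alive, at 315 and 327 FPKM, with 27254 and 28700 reads at chr3:107741048-107760469 in mm10 (ENSMUSG00000014599). Csf1 ranked 74 among protein-coding genes. Of 48 growth factors for receptor tyrosine kinases 20 were expressed. The next were Vegfa (50.6 and 48.4 FPKM) and Vegfb (33.8 and 32.7), which act on blood vessels, Pdgfa (29.8 and 29), which acts on fibroblasts, Fgf7 (16.9 and 19.1), which acts on epithelium, and Kitl (16.8 and 17.1), the stem cell factor. In both libraries Csf1 stood far above every other gene of this list.

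Chemokines were narrow in number. Of 33 chemokines 6 were expressed: the monocyte attractants Ccl7 (131 and 148 FPKM) and Ccl2 (122 and 133), the neutrophil attractant Cxcl1 (16.6 and 17.5), Cx3cl1 (9.73 and 8.62), Ccl9 (7.12 and 6.5) and Ccl25 (2.66 and 2.37), of which Ccl25 overlaps Elavl1. Cxcl12, a chemokine of most stromal cells, was listed at 0. Of 33 interleukins and other cytokines 10 were expressed. After Mif came Lcn2, the siderophore-binding lipocalin, at 10.3 and 11.4 FPKM, and Clcf1, a cytokine of the interleukin 6 family, at a mean of 10.2, then Ctf1, Tnfsf12 and Il4 at 2.52 to 3.79 FPKM. Il6 stood at 1.13 and 0.942 FPKM. Of 28 genes listed with complement 11 were expressed. The highest was C1qtnf6 (28.3 and 30.4 FPKM), a C1q-related gene that is not itself a complement component. Next came Clu, clusterin (20.1 and 19.2 FPKM), with Hc, C1ra, Masp1 and C1s1 at 5.16 to 5.81 FPKM. The counted genes C2, C8g and Masp2 each overlap a more abundant gene on the other strand and are uncertain.

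Most listed developmental ligands were under 1 FPKM. Of 25 TGF-beta family ligands 6 were expressed, with Gdf15, a stress-induced member, at 15.7 and 16.2 FPKM, Tgfb1 at 9.59 and 9.15 and Tgfb3 at 3.54 and 3.43, followed by Lefty1, Amh and Inha at 1.54 to 3.41 FPKM. Tgfb2, Bmp2, Bmp4 and Bmp7 were listed at 0. Of 31 Wnt, hedgehog and Notch ligands 3 were expressed, Wnt10b (3.2 and 2.64 FPKM), Wnt5b (2.58 and 2.68) and Wnt10a (1.76 and 1.12), and Wnt5b overlaps Fbxl14. Of 26 antagonists 4 were expressed, Twsg1 (23.2 and 26 FPKM) and Grem1, the BMP antagonist gremlin (23.1 and 23.9), and at lower levels Fstl3 (5.995 and 6.45) and Bmper (2.83 and 2.6).

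Of 355 listed receptors 132 were expressed, led by F2r, Itgb1 and Eng. Of 58 receptor tyrosine kinases 18 were expressed. Ddr2 and Ryk, a Wnt co-receptor (39.98 and 40.8 FPKM), came before Pdgfrb, and Epha2 (17.5 and 15.9), Ddr1 (15.5 and 15.1) and Ephb4 (15.4 and 14.4) followed. Fgfr1 stood at 14.2 and 14 FPKM, Egfr had 5 and 4 reads, and Fgfr2 was listed at 0. Of 15 TGF-beta family receptors 10 were expressed. Eng led, then Bmpr1a (14.8 and 15.8 FPKM), Tgfbr3, the co-receptor betaglycan (14.6 and 14.1), Acvr1b (10.5 and 11.1), Tgfbr2 (8.79 and 8.26) and Acvr1 (5.92 and 7.32). The signalling receptor Tgfbr1 stood at 5.24 and 5.33 FPKM.

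Integrin chains for fibronectin and laminin were expressed, and several alpha chains that bind collagen were under 1 FPKM, while the collagen receptors Ddr2 and Ddr1 were expressed. Of 26 integrin genes 10 passed 1 FPKM. Itgb1, the shared beta chain, stood at 75.2 and 77.2 FPKM, Itgb5 at 62.6 and 60.7, Itga5, of the fibronectin receptor, at 33.6 and 33.4, Itgb7 at 27.9 and 28.8, Itgav at 22.1 and 21.9 and Itga6, of laminin receptors, at 15.5 and 15.7. The collagen-binding chains Itga1 and Itga11 had at most 5 reads a library, and Itga2 was listed at 0. Of 27 Wnt, hedgehog and Notch receptors 14 were expressed, with the hedgehog co-receptor Gas1 at 24.1 and 22.8 FPKM, Smo at 14.5 and 15.5, Notch2 at 12 and 11.6, and Fzd7, Lrp5 and Fzd4 at 9.36 to 11.6 FPKM.

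Receptors of inflammation were present in part. Of 50 cytokine receptors 21 were expressed, with Il6st, the shared chain gp130, at 32.7 and 33.9 FPKM, Il17rc at 21.6 and 18.6, Osmr at 16.8 and 17.3, Ifngr2 at 15.4 and 17.4, and Ifnar1 and Ifngr1 at 14.4 and 11 FPKM. Of 26 TNF receptor genes 11 were expressed, with Tnfrsf12a, the receptor of TWEAK, at 62.6 and 65.4 FPKM, Tnfrsf1a at 51.3 and 50.02, Ltbr at 39.5 and 40.5, and Tnfrsf22, Tnfrsf1b and Tnfrsf23 at 8.75 to 13.2 FPKM. Of 12 toll-like receptors Tlr4 (10.2 and 10.1 FPKM), Tlr2 (9.91 and 10.2), Tlr5 (4.34 and 4.12) and Tlr6 (0.885 and 1.15) passed. The pairs for Tlr4 and Tlr2 overlap. Of 23 chemokine receptors 1 passed, Cxcr5 at 0.917 and 1.39 FPKM, and it overlaps Bcl9l, a gene on the opposite strand at 17.4 FPKM.

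G protein-coupled receptors of mediators were led by F2r, the thrombin receptor, at 98.6 and 102 FPKM. Next were Ptgir, the prostacyclin receptor (22.6 and 22 FPKM), Lpar1 (20.9 and 22) and Lpar5 (11.4 and 11.2), receptors of lysophosphatidic acid, Gprc5b (9.81 and 10.1) and Calcrl (6.18 and 6.29), and 17 of 69 of the list passed 1 FPKM. The angiotensin receptors Agtr1a and Agtr1b and the endothelin receptor Ednrb were listed at 0, and Ednra stood at 0.446 and 0.517 FPKM. Of 49 nuclear receptors 26 were expressed, the highest being Nr3c1, the glucocorticoid receptor (35.4 and 35.2 FPKM), Rarg, a retinoic acid receptor (33.5 and 35.3), Pparg, Rxra (16.7 and 17.6), Nr1d2 (14.1 and 13.8) and Rxrb (12.9 and 13). The plot of secreted signals and receptors sets these counts beside the share of all protein-coding genes.

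**Figure D4:**
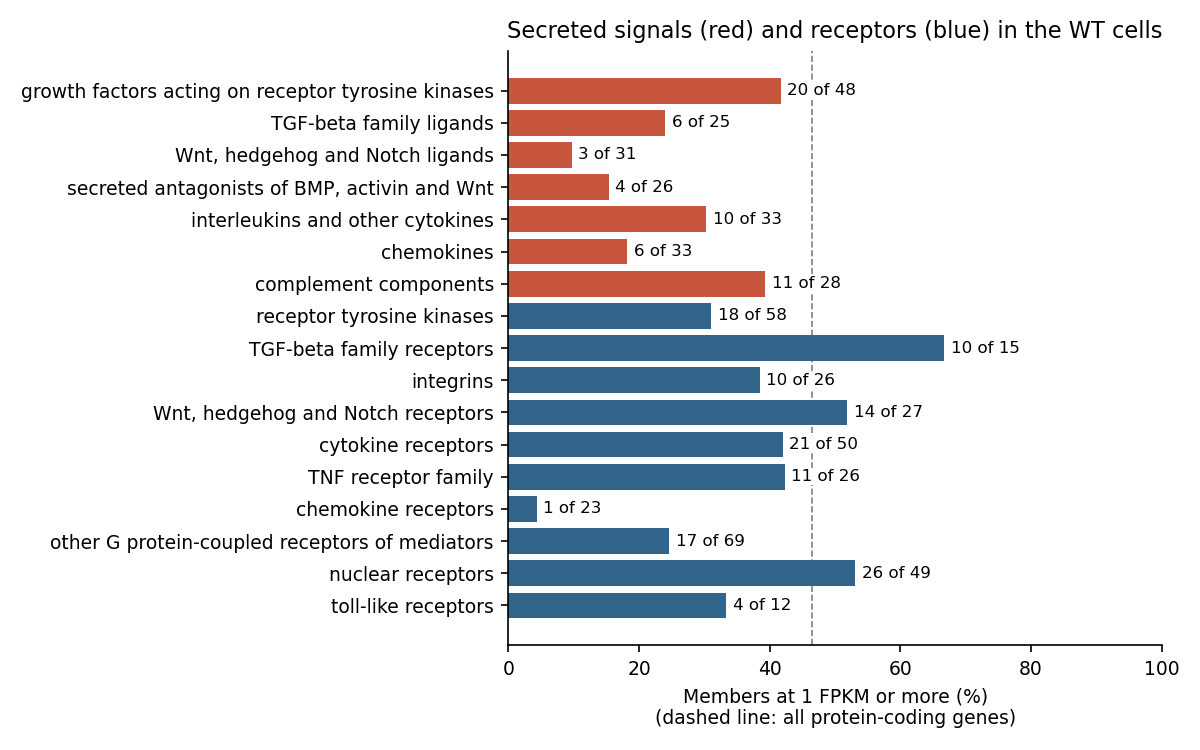
Percent of members at a mean of 1 FPKM or more (horizontal axis) in 7 lists of secreted signals (red) and 10 lists of receptors (blue); the dashed line is the 46.5% of all protein-coding genes. The lists of TGF-beta family receptors, nuclear receptors, and Wnt, hedgehog and Notch receptors lie to the right of the line, and the other 14 to the left.

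In 113 listed pairs of a ligand and its receptor, both genes were expressed in 25. The ligand alone was expressed in 23, the receptor alone in 38 and neither in 27. For single protein-coding genes the background share was 46.5%. What unpaired genes would give was not computed, so the count of 25 does not show matched signalling. Ranked by the lower of the 2 means, the first was Mif (447 FPKM) with Cd74, its surface receptor (114 and 101 FPKM), then Lgals1 with Itgb1 and Col1a1 with Ddr2. Calr and App were each paired with Lrp1, an endocytic receptor at 51.3 and 48.5 FPKM, and App stood at 35.5 and 35.7 FPKM. Fn1 with Itga5, Spp1 with the hyaluronan and osteopontin receptor Cd44 (29.4 and 31.5 FPKM), Lamc1 with Itga6, Col1a1 with Ddr1, and Sema3c (12.9 and 14 FPKM) with Nrp2 (32.9 and 32.7) completed the first 10. For Csf1 the receptor Csf1r stood at 0.15 and 0.21 FPKM, so the most abundant growth factor of these cells had no matching receptor above 1 FPKM. Proteins and their secretion were not measured.

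**Figure D5:**
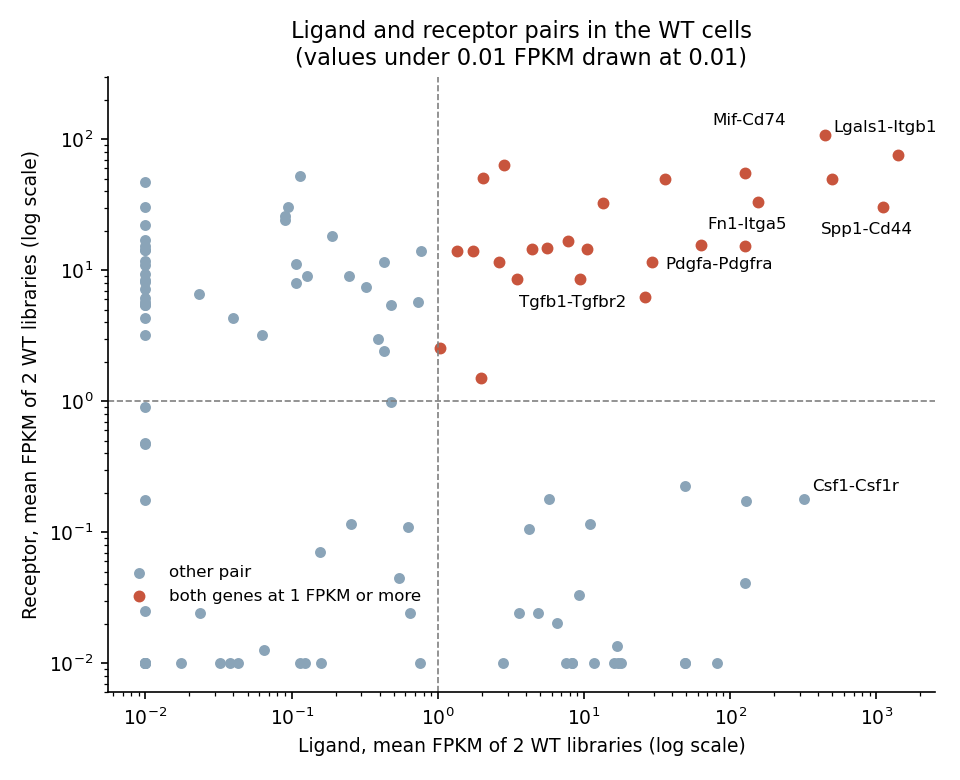
Mean FPKM of the ligand (horizontal axis, log scale) against that of its receptor (vertical axis, log scale) for 113 pairs in the WT cells, with values under 0.01 FPKM drawn at 0.01. The 25 red points are pairs with both genes at 1 FPKM or more, the dashed lines are 1 FPKM, and Csf1 with Csf1r lies at the lower right.

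Long non-coding RNA was led by AI506816 at 499.7 and 505 FPKM and by Gm47015 (126 and 121), Cct6a (103 and 107; listed as a processed transcript, although this symbol names a chaperonin subunit), Gm47223 (85.9 and 81.6) and 2410006H16Rik (73.4 and 78.6). Of 5559 lincRNA genes 244 were expressed, and of 9497 processed pseudogenes 694, which held 5.82% and 5.84% of all FPKM. The protein-coding genes at 10 FPKM or more that differed most between the libraries included several ribosomal protein genes. Rpl7a stood at 212 and 50.6 FPKM, Rps27rt at 749.9 and 233, Rps27 at 347 and 682 and Rpl17 at 208 and 407, and Sumo2 at 5.81 and 19.3. Rps27 was higher and its retrogene Rps27rt lower in WT replicate 2. The remaining 5 of the 10 greatest differences were Sarnp, Carnmt1, Fam122a, Gm10031 and Lars2, at differences of at most 0.76 on the log2 scale.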

How the data were processed

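The authors deposited 1 table of FPKM values, 1 column per library, with gene coordinates, lengths and families. Per the labels' protocols, total RNA was sequenced as read pairs on an Illumina instrument. Per the submitters' processing notes, reads were aligned with HISAT2 2.0.5 to mm10. The sources used here name no read counter or gene annotation and do not say whether strand was used. FPKM times gene length was a whole multiple of 1 step per library for 100% of values (tolerance 0.001), which gave reads per gene. The recovery was checked on simulated data. From the FPKM, means, SDs, ranks and list counts were computed with Python 3.11.15, and no test was made, since there is 1 group. Gene lists (52), pairs and the rule for named genes were chosen with earlier results of these data known. The rule took Calu, Vim, the 25 highest protein-coding genes, the 5 highest long non-coding RNAs, up to 6 leaders and the defining genes of each list, the 10 greatest replicate differences and the 10 highest pairs; other genes at or near 0 were picked after their values were seen. Some genes that the rule takes are not reported here. Other thresholds, TPM, fewer gene classes and single libraries were tried as alternatives.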

Additional observations from a re-analysis of the deposited data

How the results depend on the processing

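The counts of expressed genes and of pairs stayed within 1.5 times of the main count under every alternative run. All genes at 1 FPKM ran from 10258 to 14764, protein-coding genes from 9395 to 11493 and pairs from 21 to 36. The 50 most abundant genes held 15.0% of FPKM with the mitochondrial chromosome left out and 19.9% among protein-coding genes only, and core matrix genes held 1.63% and 1.69%. With 1 WT library left out, the first share ran from 18.9% to 19.6% and the second from 1.5% to 1.53%. Of 52 list counts, 41 stayed within 1.5 times with 10 reads per library as the rule, 44 as TPM, 49 at 0.5 FPKM, 47 at 2 FPKM and 50 with 1 FPKM in each library. Without WT replicate 1 the chemokine receptors moved from 1 to 2, and the other list that moved was that of erythroid and megakaryocyte markers. Without WT replicate 2 no list moved by over 1.5 times. Lung mesenchyme factors fell from 2 to 1 at 2 FPKM, and macrophage markers rose from 3 to 6 and epithelial markers from 3 to 6 with 10 reads as the rule. No paired analysis was possible because a single group was described and no test was made. Depth limits genes with under 3 reads a library.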

Other observations

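Some genes outside the lists stood out when the table was read, and were chosen for their values. Fscn1, an actin-bundling protein of motile cells, stood at 378 and 379.5 FPKM, Scd2, a fatty acid desaturase, at 267 and 259, and Phgdh, the first enzyme of serine synthesis, at 246 and 243. Hmga2, a chromatin protein of embryonic and transformed cells, stood at 54.9 and 55.3 FPKM and Fosl1, an AP-1 factor, at 55.4 and 46.5. Gm23935, a gene of 57 bases, stood at 1257 and 3039.6 FPKM with 1173 and 2878 reads, so WT replicate 2 was the higher.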
